A study of Mus musculus with 6 samples.

Results

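The granzymes are serine proteases that cytotoxic lymphocytes store in granules and release with perforin onto the cell they attack. The 9 granzyme genes followed here were Gzma, Gzmb, Gzmc, Gzmd, Gzme, Gzmf, Gzmg, Gzmk and Gzmm, chosen by gene name out of 32285 genes in the expression tables. The tables also list Gzmn, a neighbouring granzyme gene, which had 1 UMI in the control tumor library and 0 in the other 3 libraries. A UMI (unique molecular identifier) marks 1 captured RNA molecule.

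The cells were CD8 T cells from mice bearing B16-OVA melanoma, a mouse skin tumor line that carries the model antigen ovalbumin. Control mice were CD8-Cre Rosa26Tomato, and CD8-IFNγRKO mice were CD8-Cre Rosa26Tomato IFNgR1flox/flox, in which Cre recombinase driven from the CD8a gene removes the interferon-γ receptor chain IFNγR1 from CD8 T cells. Both genotypes therefore carried Cre and the Tomato reporter. The mice were 6 to 10 weeks old, and 3 mice were pooled per genotype. Tumor and draining lymph node (LN) were taken at day 12 according to the labels (up to day 15 in the methods), and CD45+CD3+CD8+Tomato+ cells were sorted for droplet 5′ single-cell RNA-seq, with T cell receptor (TCR) sequencing of both tumor samples. The question addressed was what loss of interferon-γ sensing by CD8 T cells does to these cells. Each tissue and genotype was 1 library, and the files do not tie cells to mice. No test between groups was possible. Values are given with 95% intervals (exact Poisson for levels, exact conditional binomial for ratios, exact Clopper-Pearson for shares of cells), which cover counting error only and not the spread between mice or clones.

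After filtering, 7097 control tumor cells, 8632 CD8-IFNγRKO tumor cells, 6640 control LN cells and 6731 CD8-IFNγRKO LN cells remained, with median depths of 6306, 9398, 4051 and 3863 UMIs per cell. The filter required UMIs of Cd2, Cd8a and Cd8b1, so every kept cell had UMIs of CD8 T cell markers. Markers of macrophages, B cells and melanoma cells summed to between 0.438 and 22.2 CPM (UMIs scaled to a library total of 1000000) in each library. The 6 NK cell markers, a cell type that also makes granzymes, summed to 175 and 137 CPM in control and CD8-IFNγRKO tumors and to 27.8 and 27.6 in LN. Their defining gene Ncr1 was at 0 in 3 of the 4 libraries, all but the CD8-IFNγRKO tumor. Other genes of this list were common in tumors. At least 1 of the 6 markers was found in 46.2% of control and 49.6% of CD8-IFNγRKO tumor cells, and at least 2 in 8.06% and 7.15%. In LN at least 1 was found in 10.2% and 9.72% of cells, and at least 2 in 0.0753% and 0.134%. Between 51 and 82 cell barcodes were shared by any pair of libraries, 0.758% to 1.23% of a library's kept cells. The floxed gene Ifngr1 gave 718 CPM (711 to 725) in control and 238 CPM (234 to 241) in CD8-IFNγRKO tumors, and 182 and 137 in LN. Reads of 5′ ends outside the removed part could still be counted, and where the Ifngr1 reads lie was not examined. These values therefore cannot count the cells in which the gene was left whole.

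Granzymes differ in what they cut and where their genes lie. Granzyme B cuts after aspartate and activates caspases in the target cell. Granzymes A and K are tryptases, which cut after basic residues, and granzyme M prefers methionine. Granzymes C, D, E, F and G are encoded beside granzyme B and belong to a branch of the family expanded in rodents. In the RefSeq annotation (GRCm38.p6) this cluster lies on the minus strand of chromosome 14. Its members are Gzme (56117619 to 56120625), Gzmd (56129556 to 56132603), Gzmg (56156581 to 56159579), Gzmf (56205263 to 56211407), Gzmc (56231397 to 56241647) and Gzmb (56258836 to 56262334), with Gzmn between Gzmg and Gzmf. Gzma (113093824 to 113100981) and Gzmk (113171630 to 113180965) are neighbours on the minus strand of chromosome 13. Gzmm (79689020 to 79695261) is on the plus strand of chromosome 10.

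The related upstream sequences of Gzmc to Gzmg are shown because Gzmc and the other 4 genes moved in opposite directions between genotypes, as described below. In the RefSeq promoter windows (250 bases before the annotated start to 50 after it, 300 bases), a run of 20 bases is shared by all 5 genes without a mismatch. The 100 bases that end with this run are printed 5′ to 3′, from the minus strand of GRCm38.p6. Capitals mark each base that differs from Gzmc. The block covers chr14:56234683-56234782 for Gzmc, chr14:56132623-56132722 for Gzmd, chr14:56120656-56120755 for Gzme, chr14:56211458-56211557 for Gzmf and chr14:56159625-56159724 for Gzmg.
Gzmc: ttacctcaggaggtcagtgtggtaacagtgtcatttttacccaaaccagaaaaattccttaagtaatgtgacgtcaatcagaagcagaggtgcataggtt
Gzmd: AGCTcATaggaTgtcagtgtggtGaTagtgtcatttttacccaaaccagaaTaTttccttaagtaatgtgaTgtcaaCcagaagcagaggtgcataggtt
Gzme: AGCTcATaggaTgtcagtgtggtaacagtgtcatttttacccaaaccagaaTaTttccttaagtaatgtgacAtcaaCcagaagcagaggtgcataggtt
Gzmf: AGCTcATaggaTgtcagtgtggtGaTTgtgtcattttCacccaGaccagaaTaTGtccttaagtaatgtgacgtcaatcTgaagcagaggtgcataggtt
Gzmg: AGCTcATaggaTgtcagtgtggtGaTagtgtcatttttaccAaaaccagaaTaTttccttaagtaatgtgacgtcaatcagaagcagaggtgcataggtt

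In this block 80 of 100 positions were the same in all 5 genes, and at 9 positions Gzmd to Gzmg shared a base that Gzmc did not have. The 80 positions include the run of 20 bases by which the block was chosen, as do the identities that follow. Gzmc was 84.0% to 89.0% identical to the other 4, which were 91.0% to 97.0% identical to each other. The Gzmc block lies 125 to 26 bases before an annotated start that is inside the annotated span of the gene. Motifs were searched as plain letters on both strands of each 300-base window. The RUNX letters TGTGGT were found in 2 places in each of Gzmb, Gzmc, Gzmd, Gzme, Gzmf and Gzmg, in 1 place in Gzma and in 1 place in the first Gzmm window, and 16.8% of all 32851 windows held them. The STAT element TTCNNNGAA (8.30% of windows) and the AP-1 element TGANTCA (7.81% of windows) were found in the window of Gzmb and in none of Gzmc to Gzmg. The first Gzmm window also held the STAT element. The T-box letters GGTGTGA (3.98% of windows) were found for Gzmk and for the second of 2 Gzmm windows. A letter match is a description and not a binding site. Gzmd, Gzme, Gzmf and Gzmg are known as close relatives. How alike their transcripts are, and how reads that fit more than 1 of them were counted, was not measured here, so the sum of the 4 is given beside the single genes.

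In tumors the granzyme RNA was mostly Gzmb. Levels are CPM over all kept cells of a library, with no correction for how well each gene's 5′ end is captured. Gzmb had 3359 CPM (3344 to 3373) in control and 4873 CPM (4859 to 4887) in CD8-IFNγRKO tumors, where it ranked 36 and 18 among all genes. It made up 66.0% and 78.2% of the UMIs of the 9 genes. The 9 genes together gave 5092 CPM in control and 6233 CPM in CD8-IFNγRKO tumors.

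The order below Gzmb differed between the tumor libraries. In control tumors Gzmf followed with 674 CPM, then Gzme with 365, Gzmd with 282, Gzmc with 209 (206 to 213), Gzmk with 132, Gzma with 44.7 (43.0 to 46.5), Gzmg with 25.8 and Gzmm with 1.16. In CD8-IFNγRKO tumors Gzmc came second with 593 CPM (588 to 598), followed by Gzmf with 275, Gzmk with 222, Gzma with 175 (172 to 177), Gzme with 49.9, Gzmd with 41.6, Gzmm with 2.30 and Gzmg with 1.31. No neighbours in either order had overlapping counting intervals. Gzmc held 4.11% of granzyme UMIs in control and 9.52% in CD8-IFNγRKO tumors. Gzmf held 13.2% and 4.42%.

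In LN granzyme RNA was scarce and its leading gene was Gzmm. The 9 genes summed to 16.9 CPM (15.5 to 18.5) in control LN and 12.0 CPM (10.8 to 13.3) in CD8-IFNγRKO LN. Gzmm gave 8.99 CPM (7.95 to 10.1) and 8.63 CPM (7.59 to 9.78), which was 53.1% and 72.0% of the granzyme UMIs. Gzmb gave 4.21 CPM (3.51 to 5.01) and 1.87 CPM (1.41 to 2.44). Gzma gave 2.81 CPM (2.24 to 3.47) and 0.659 CPM (0.397 to 1.03), and Gzmk gave 0.835 and 0.589 CPM. Gzmc had 3 UMIs in control and 7 in CD8-IFNγRKO LN. In CD8-IFNγRKO LN the intervals of Gzma and Gzmk overlapped, as did those of Gzmk and Gzmc. Gzmd, Gzme, Gzmf and Gzmg had 0 UMIs in both LN libraries.

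**Figure D1:**
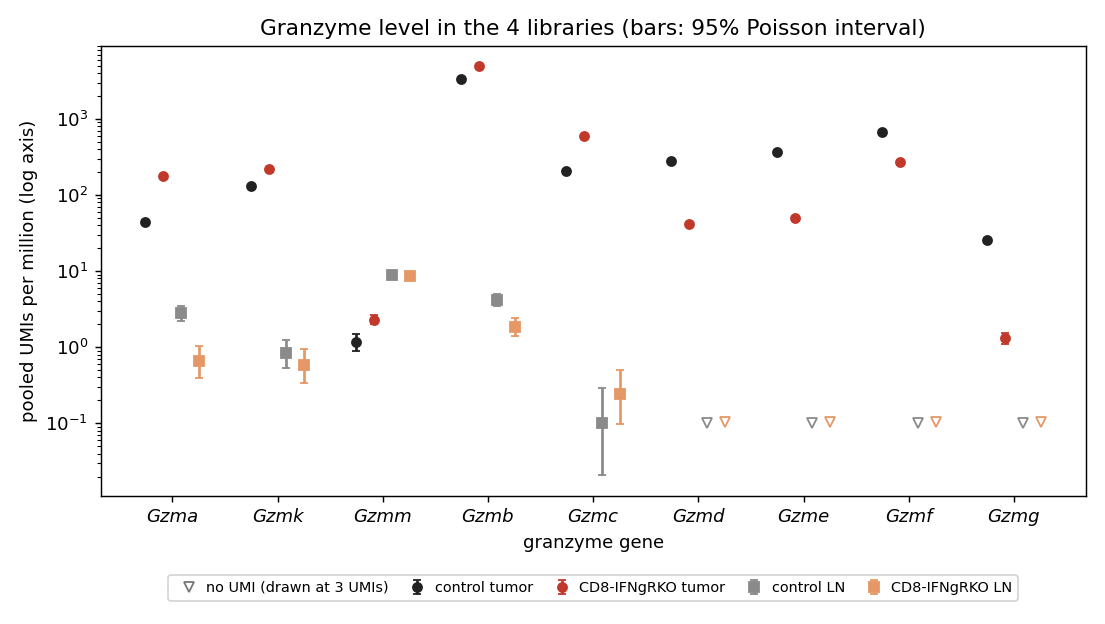
Level of each granzyme gene in the 4 libraries, in pooled CPM on a log axis. Points are libraries, bars are 95% Poisson intervals, and open triangles stand for genes with no UMI, drawn at the level of 3 UMIs. Gzmm is the only gene whose LN points (8.99 and 8.63) lie above its tumor points (1.16 and 2.30).

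Between tissues, 8 of the 9 genes were at least 2-fold higher in tumor than in LN and 1 was at least 2-fold lower, in each genotype. A gene was called when its log2 ratio, with 1 CPM added to each side, reached 1 in size and it had at least 100 UMIs over both libraries. Gzmd, Gzme, Gzmf and Gzmg had no LN UMI and passed the 100-UMI limit through tumor alone, and Gzmc nearly so. For the genes with no LN UMI a call of higher followed from passing that limit. The count of 8 therefore cannot be weighed against the shares of all genes. Among all genes tested in control mice, 16.5% were called higher and 11.7% lower in tumor; in CD8-IFNγRKO mice 17.5% and 12.9% were. Gzmm was the lower gene, with a tumor level 0.129 times that in LN in control and 0.266 times in CD8-IFNγRKO mice. Gzma was 15.9-fold higher in control and 265-fold higher in CD8-IFNγRKO tumors. Gzmk was 158-fold and 376-fold higher, and Gzmb 798-fold and 2603-fold higher. For the genes with no LN UMI the fold is a lower bound taken from 3 UMIs per library. In control mice Gzmf was at least 6719-fold, Gzme at least 3638-fold, Gzmd at least 2815-fold and Gzmg at least 257-fold higher in tumor. In CD8-IFNγRKO mice Gzmf was at least 2646-fold, Gzme at least 479-fold, Gzmd at least 399.7-fold and Gzmg at least 12.6-fold higher. The Gzmc ratios rest on the 3 and 7 LN UMIs, the Gzmk ratios on 25 and 17, and the CD8-IFNγRKO Gzma ratio on 19. Calls for the scarcest genes ended under some settings. With 10 CPM added, the log2 ratio of Gzmm was -0.77 in control and -0.60 in CD8-IFNγRKO mice (-2.21 and -1.55 with 1 CPM), and that of Gzmg in CD8-IFNγRKO mice was 0.18 (1.21). As a mean of per-cell CPM, Gzmm gave -0.31 in CD8-IFNγRKO mice. In bulk sums such as these, fewer cells with a gene and less RNA per cell cannot be told apart, and shares of cells are given below.

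Between genotypes in tumors, the granzymes did not move together. Gzma (log2 ratio of CD8-IFNγRKO over control 1.94) and Gzmc (1.50, 1.47 to 1.53) were higher in the CD8-IFNγRKO library, whereas Gzmd (-2.73), Gzme (-2.85), Gzmf (-1.29) and Gzmg (-3.54, -3.70 to -3.37) were lower. By the 2-fold rule 2 of 9 members were higher, where 1.04% of the 11322 genes tested were, and 4 of 9 were lower, where 1.27% of genes were. Gzmk (0.75, 0.71 to 0.79), Gzmm (0.61, 0.37 to 0.84) and Gzmb (0.54, 0.53 to 0.54) were above 0 without reaching 2-fold on this scale. The median over the members was 0.54 and that over all tested genes was 0.02.

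Gzmc moved opposite to the 4 cluster genes whose upstream block it shares. Gzmc UMIs were 2.84-fold higher and the sum of Gzmd to Gzmg 0.273 times as high in CD8-IFNγRKO as in control tumors, from 1346 CPM (1337 to 1355) to 368 CPM (364 to 372). Gzmg was at 0.0508 times the control level, from 1532 UMIs to 123, and Gzmf at 0.409 times. Of the 1532 control Gzmg UMIs, 1226 came from cells without a clone in the TCR data. In clones of 20 or more cells Gzmg was at 0.160 and Gzme at 0.135 times the control level, and with 10 CPM added the log2 ratio of Gzmg over all cells was -1.66. Summed over Gzmc to Gzmg, the cluster gave 1555 CPM in control and 961 CPM in CD8-IFNγRKO tumors, a log2 ratio of -0.69.

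In LN only Gzma, Gzmm and Gzmb had enough UMIs to be compared between genotypes. Gzma went from 84 UMIs in control to 19 in CD8-IFNγRKO LN (log2 ratio -1.20, -1.52 to -0.83), opposite in direction to tumors. Gzmb went from 126 to 54 UMIs (-0.86, -1.19 to -0.52), and Gzmm from 269 to 249 (-0.05, -0.28 to 0.18). By the 2-fold rule 1 of 3 was lower, where 0.0694% of the 10080 genes tested were, and 0 of 3 were higher, where 0.0397% were. With 10 CPM added in place of 1, the Gzma ratio in LN was -0.26 and no longer past 2-fold.

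The tumor differences were then followed to the share of cells with each granzyme. Because the libraries differed in depth, each cell was thinned to 1600 UMIs, which left 6396 control and 8354 CD8-IFNγRKO tumor cells and set aside 701 and 278 shallower ones. A Gzmb UMI was found in 86.0% of control and 87.3% of CD8-IFNγRKO tumor cells (92.6% and 92.5% without thinning). The mean over cells with Gzmb was 5.81 UMIs in control and 7.82 in CD8-IFNγRKO. Gzmb was thus found in a like share of cells, with more UMIs per cell that had it.

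The other genes differed in the share of cells. Gzma was found in 2.97% of control and 10.1% of CD8-IFNγRKO tumor cells (6.07% and 21.2% without thinning). Gzmk was found in 17.1% and 27.6% (38.9% and 60.4%), and Gzmc in 9.22% and 19.6% (21.2% of all 7097 cells and 3023 of all 8632). In the other direction Gzmd went from 12.1% to 2.13% (19.9% and 3.70% without thinning), Gzme from 15.4% to 3.10% (25.5% and 5.65%) and Gzmf from 20.7% to 9.67% (30.4% and 16.6%). Gzmg was found in 0.610% of control and 0.132% of CD8-IFNγRKO cells (1.80% and 0.348%), and Gzmm in 0.219% and 0.539% (0.845% and 1.68%). Among cells with the gene, Gzma gave a mean of 3.63 UMIs in control and 3.13 in CD8-IFNγRKO, Gzmd 2.86 and 2.44, and Gzmf 4.38 and 3.76. Gzmc gave 2.45 and 3.66, higher in CD8-IFNγRKO cells as its share of cells was.

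Free RNA in the droplets can give a UMI to a cell that does not make the gene. Barcodes that carried markers of macrophages or melanoma cells but not of T cells served as background, 18 in the control and 7 in the CD8-IFNγRKO tumor, at median depths of 815 and 3289 UMIs. Of the 18 control barcodes, 55.6% had a Gzmb UMI (399 CPM), 22.2% a Gzmk UMI (145 CPM), 16.7% a Gzme UMI (109 CPM) and 5.56% a Gzmf UMI (36.3 CPM). Of the 7 CD8-IFNγRKO barcodes 1 had a Gzmb UMI (6.93 CPM). In control tumors the Gzmk share and level of T cells (17.1%, 132 CPM) were at or below those of the background barcodes. This comparison alone therefore cannot tell Gzmk there apart from background. The Gzme share of T cells (15.4%) was also no higher than in the background barcodes, while its level was higher (365 against 109 CPM). These background values rest on 4 Gzmk and 3 Gzme UMIs. For the shares T cells were thinned to 1600 UMIs, whereas the control background barcodes had a median of 815. Gzmk ran from 44.3 to 479 CPM over the 22 large control clones described below, and reached 32 UMIs in 1 unthinned control cell. Of thinned control cells with Gzma, 39.5% also had Gzmk. In control clones of 1 cell, also described below, Gzme was found in 1.11% of thinned cells (2.19 CPM). How much of the control Gzmk and Gzme was background was not tested. Gzma, Gzmc, Gzmd, Gzmg and Gzmm had no UMI in the background barcodes of either tumor. With 18 and 7 barcodes this allows shares of up to 18.5% in control and 41.0% in CD8-IFNγRKO tumors (exact Clopper-Pearson upper limits). The T cell shares of these genes lie below those limits, so these barcodes cannot tell them apart from background.

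By the part of UMIs held by the top 1% of cells, granzyme RNA was spread unevenly, least so for Gzmb and Gzmk. This part also rises when fewer cells have the gene. The ratio of variance to mean over cells did not follow it for each gene. That ratio was 14.2 in control and 9.51 in CD8-IFNγRKO for Gzma, 5.28 and 9.28 for Gzmc, 5.89 and 5.56 for Gzmd, and 10.1 and 10.6 for Gzmf. The 1% of control tumor cells with most Gzma held 78.7% of its thinned UMIs, and the same share of CD8-IFNγRKO cells held 45.9%. For Gzmc the top 1% held 40.2% in control and 28.0% in CD8-IFNγRKO. Gzmd went the other way, with 32.6% in control and 78.4% in CD8-IFNγRKO, as did Gzmf with 24.2% and 42.8%. For Gzmk the top 1% held 14.9% and 11.4%, and for Gzmb 6.09% and 5.75%. The highest count in 1 unthinned cell was 474 UMIs of Gzmb in control and 743 in CD8-IFNγRKO, and 529 and 709 UMIs of Gzmf. Over the 9 genes, the granzyme share of a cell's UMIs had a median of 0.312% in control and 0.375% in CD8-IFNγRKO tumor cells, and reached 8.31% and 10.3%.

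In LN, thinned to the same depth, Gzmm was found in 1.05% of control and 0.703% of CD8-IFNγRKO cells, Gzmb in 0.422% and 0.194%, and Gzma in 0.328% and 0.0448% (without thinning 2.20% and 1.92%, 1.05% and 0.505%, and 0.889% and 0.253%). For Gzmd, Gzme, Gzmf and Gzmg, 0 of 6403 and 0 of 6690 thinned cells had a UMI, which allows a share of cells with a UMI of up to 0.0469% and 0.0448% by the limit of 3 counts (exact Clopper-Pearson upper limits 0.0576% and 0.0551%). This does not limit the share of cells that express these genes below detection. None of the 11 and 12 LN barcodes with B cell but no T cell markers had a granzyme UMI. LN Gzmm RNA was denser in cells with a UMI of Ccl5, a chemokine of memory CD8 T cells. These were 439 thinned control and 375 thinned CD8-IFNγRKO cells. There Gzmm reached 76.9 CPM in control and 65.0 CPM in CD8-IFNγRKO, against 3.04 and 1.68 CPM in cells without Ccl5. Gzma reached 21.4 CPM in control Ccl5 cells, against 1.05 CPM in control cells without Ccl5. In CD8-IFNγRKO LN 0 Gzma UMIs were found in Ccl5 cells and 3 in the 6315 thinned cells without Ccl5.

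Which granzymes occurred together in a cell was described with the odds ratio of detection, on the log2 scale, over thinned tumor cells. Cells of a library share its depth and source, so these values carry no test. Gzmd and Gzme had the highest value of the 7 genes plotted, apart from 1 pair that rests on a continuity correction. In control tumors 8.44% of cells had both where independent detection gives 1.86% (log2 odds ratio 4.76, Pearson r of log counts 0.66 over 6396 cells). In CD8-IFNγRKO tumors 1.23% had both where 0.0661% would (6.13, r 0.63 over 8354 cells). Gzmd and Gzmf gave 3.33 and 4.11, and Gzme and Gzmf 3.26 and 3.63. Gzmg was found in few cells and was not plotted. In control tumors it gave 5.58 with Gzmd and 5.16 with Gzme, over 34 cells with both in each pair. In CD8-IFNγRKO tumors it gave 5.32 with Gzmd (5 cells) and 6.29 with Gzme (8 cells). With Gzmf it gave 3.46 in control and 3.97 in CD8-IFNγRKO tumors. The pairs of Gzmd to Gzmf were thus detected together in both genotypes, although far fewer CD8-IFNγRKO cells had these genes. How reads that fit more than 1 of these close relatives were counted was not measured. The part of such reads in these pair values was not tested.

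Gzmc was also found together with these genes, although its level moved the other way. Gzmc with Gzmd gave a log2 odds ratio of 2.92 in control and 4.02 in CD8-IFNγRKO tumors, and Gzmc with Gzmf 2.67 and 3.53. Of cells with Gzmd, 32.6% in control and 78.7% in CD8-IFNγRKO also had Gzmc. Of cells with Gzmc, 42.7% in control and 8.54% in CD8-IFNγRKO also had Gzmd. Split by Gzmc against any of Gzmd to Gzmg, control tumors held 2.63% cells with Gzmc only, 22.0% with Gzmd to Gzmg only and 6.60% with both. CD8-IFNγRKO tumors held 12.0% with Gzmc only, 334 of 8354 cells with Gzmd to Gzmg only and 7.61% with both. The 95% intervals of the share with both overlapped. Cells with Gzmc only were the smaller exclusive class in control and the larger in CD8-IFNγRKO tumors.

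Gzmb was found in most tumor cells, and somewhat more often in those with cluster genes. Of cells with Gzmc, 96.6% in control and 98.8% in CD8-IFNγRKO tumors had Gzmb, where 86.0% and 87.3% of all thinned cells did. Cells with both were 1.12 and 1.13 times as frequent as independent detection gives. In CD8-IFNγRKO tumors all 178 cells with Gzmd and all 259 with Gzme had it, so these odds ratios rest on a continuity correction. Gzmb stood at 4902 CPM in control and 7246 CPM in CD8-IFNγRKO cells that had both Gzmc and a gene of Gzmd to Gzmg, and at 2650.2 and 3605 CPM in cells with neither. With Tcf7, a factor of naive and stem-like T cells, the log2 odds ratio of Gzmb was -4.26 in control and -4.08 in CD8-IFNγRKO. With Prf1, which encodes perforin, it was 2.34 and 2.76.

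Gzma and Gzmk, neighbours on chromosome 13, occurred together, with a log2 odds ratio of 1.73 in control and 0.89 in CD8-IFNγRKO tumors. Pairs on different chromosomes reached such values too. Gzma with Gzmb gave -0.05 in control and 1.22 in CD8-IFNγRKO tumors, and Gzmk with Gzmb 0.27 and 0.97. Gzma with Gzmm gave 3.83 (4 cells with both) and 1.23 (9 cells). Gzma and Gzmk were each below 0 with Gzmd. Gzmk with Gzmd gave -1.18 in control and -1.43 in CD8-IFNγRKO (-0.32 and -0.57 without thinning), and Gzma with Gzmd gave -0.76 (-1.54 to 0.02) and -1.01 (-1.96 to -0.07). Gzma stood at 89.8 CPM in control cells with none of Gzmc to Gzmg and at 19.1 CPM in cells with Gzmd to Gzmg but no Gzmc. In CD8-IFNγRKO cells these levels were 223 and 59.9 CPM. For Gzmk with Gzmc the log2 odds ratio was -0.85 and -0.64, but 0.21 and 0.04 without thinning, so its direction depended on depth.

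**Figure D2:**
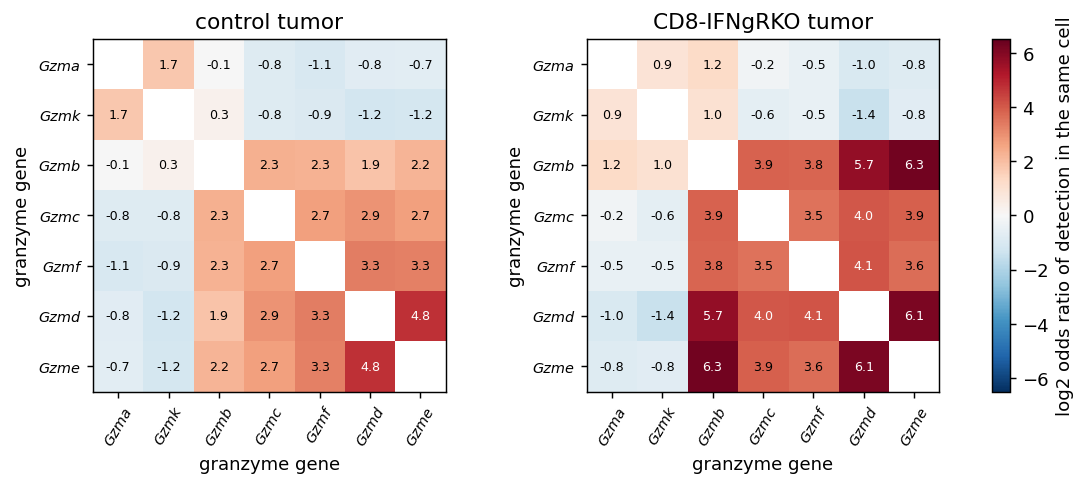
Log2 odds ratio of detection in the same thinned tumor cell for pairs of 7 granzyme genes in control (left) and CD8-IFNγRKO (right) tumors, with red for pairs found together more often than independent detection gives. Gzmd with Gzme is the reddest pair of control tumors (4.76), and Gzma and Gzmk with Gzmd are blue in both panels. The Gzmb values with Gzmd and Gzme in the right panel rest on a continuity correction.

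Over 3881 genes found in at least 5% of cells in both tumors, the genes most like Gzmb by mean Pearson r of log counts were Prf1 (0.37 in control, 0.42 in CD8-IFNγRKO), Lgals1 (0.29, 0.40) and Actg1 (0.21, 0.35). For Gzmc these were Mt1, a metallothionein (0.16, 0.30), Serpinb9b, a member of the serpin inhibitor family (0.15, 0.22), and Il1r2, a decoy receptor for interleukin-1 (0.16, 0.20). For Gzmf they were Mt1 (0.18, 0.22), Serpinb9b (0.16, 0.18) and Prf1 (0.18, 0.15). Gzmk was nearest to Ccl5 (0.13, 0.23), which was the gene least like Gzmc (-0.11, -0.21). Apart from those of Gzmb these correlations were weak. Gzma, Gzmd, Gzme, Gzmg and Gzmm were below the 5% limit and were not ranked.

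The tumor differences were next read within classes of cells defined without granzyme genes. These classes are ranges of UMIs and not cell types. For the sum of Gzmd to Gzmg the log2 ratio of CD8-IFNγRKO over control was -1.63 in cells with Havcr2 (the inhibitory receptor TIM-3) and no Tcf7, -1.58 in cells with Tcf7 and no Havcr2, and -1.88 in cells with neither. It was -1.90 in cells with the cycling genes Mki67 or Top2a and -1.87 in cells without. In cells with the interferon-induced genes Ifit1 or Ifit3 it was -2.78, against -1.81 in cells without. Cells with both Tcf7 and Havcr2 gave -0.15 with an interval from -1.20 to 0.91, over 16 and 20 cells. The value of -1.58 in cells with Tcf7 and no Havcr2 had an interval from -2.26 to -0.90. It rests on 41 control and 35 CD8-IFNγRKO UMIs. In that class 4.24% of 165 control and 3.52% of 426 CD8-IFNγRKO cells had a UMI of Gzmd to Gzmg, with overlapping intervals.

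Gzmc was higher in CD8-IFNγRKO cells in each of these classes, from 0.92 in cells with Ifit1 or Ifit3 to 1.92 in cells with Havcr2 and no Tcf7. The interval crossed 0 in the 16 and 20 cells with both Tcf7 and Havcr2. Gzma gave 2.54 in cells with Havcr2 and no Tcf7, with 2.26 as the lower limit of its interval, and 0.20 (-0.41 to 0.84) in cells with Tcf7 and no Havcr2, from 114 to 131 CPM. Cells with Havcr2 and no Tcf7 were 34.6% of control and 24.7% of CD8-IFNγRKO tumor cells, and cells with Mki67 or Top2a were 18.1% and 31.9%. The part of these shares in the whole-tumor ratios was not tested.

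**Figure D3:**
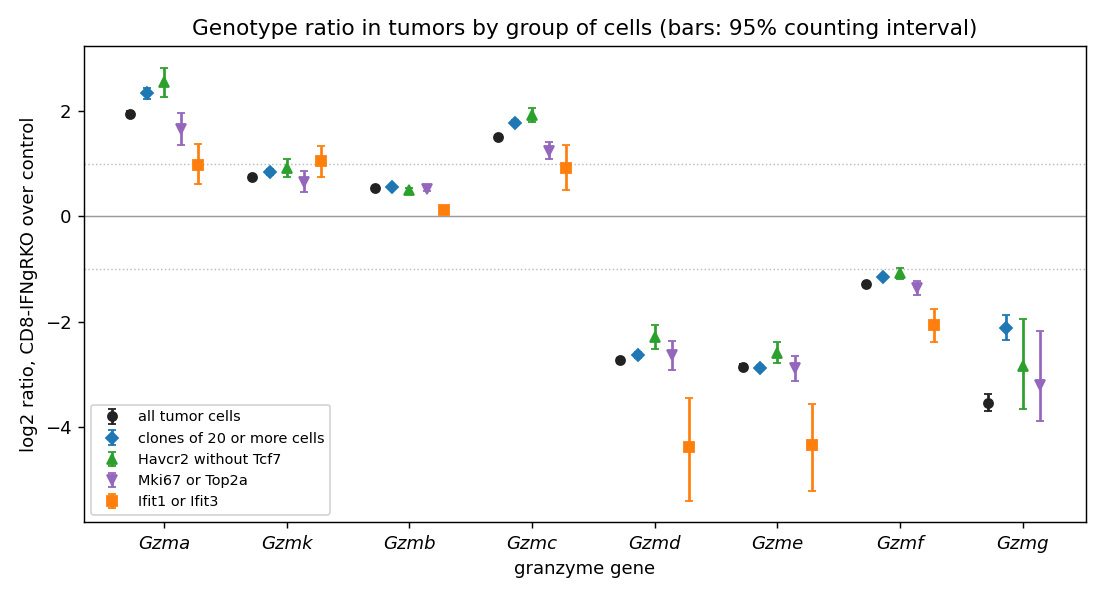
Log2 ratio of CD8-IFNγRKO over control in tumors for 8 granzyme genes, in all cells, in clones of 20 or more cells and in 3 classes of cells, with 95% counting intervals and dotted lines at 2-fold. Gzma and Gzmc lie above 0 and Gzmd to Gzmg below -1 in each group drawn. Gzmm is not drawn, nor Gzmg in cells with Ifit1 or Ifit3, where it had under 10 UMIs.

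Genes for proteins that process, store and release granzymes lay closer to 0 than most members. Of 14 such genes, 0 were past 2-fold in either direction between tumor genotypes, and their log2 ratios ran from -0.39 to 0.33 with a median of -0.16. Of the 11322 genes tested 1.04% were at least 2-fold higher and 1.27% lower, so 0 of 14 is near the share over all genes. The median over all tested genes was 0.02, and 10 of the 14 genes were below 0 and 4 above. Prf1 was at 1161 CPM in control and 1000.4 CPM in CD8-IFNγRKO tumors (-0.21). Ctsc, which encodes cathepsin C, the protease that activates granzymes, gave -0.12, and Srgn, the granule proteoglycan serglycin, gave -0.35. Serpinb9, an inhibitor of granzyme B, gave -0.25. Of 13 regulators of effector genes, 1 was at least 2-fold lower, where 1.27% of all tested genes were. This was Bcl6 (from 9.73 to 3.66 CPM, -1.20), and the list median was -0.10. Tbx21 (T-bet) gave -0.26, Eomes 0.43, Prdm1 (Blimp-1) -0.08, Runx3 -0.10 and Il12rb2, a chain of the interleukin-12 receptor, -0.58.

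Clones were then taken from the TCR libraries, as cells of a tumor with the same α and β chains. In control tumors 4282 cells (60.3%) had a clone, in 260 clones. The largest had 1104 cells, and 183 clones had 1 cell. In CD8-IFNγRKO tumors 5935 cells (68.8%) had a clone, in 429 clones. The largest had 1463 cells, and 364 clones had 1 cell. No clone was shared between both tumors. Cells without a clone had a sum of Gzmd to Gzmg of 1366 CPM in control and 319 CPM in CD8-IFNγRKO tumors.

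Cells of expanded clones had more RNA of the cluster genes than cells that were alone in their clone. From clones of 1 cell to clones of 100 or more cells, Gzmb went from 1139 to 3541 CPM in control and from 714 to 4983 CPM in CD8-IFNγRKO tumors. Gzmc went from 7.67 to 217 CPM in control and from 10.3 to 699.7 CPM in CD8-IFNγRKO tumors. The sum of Gzmd to Gzmg went from 10 UMIs in 183 cells to 1599 CPM in control and from 3 UMIs in 364 cells to 447 CPM in CD8-IFNγRKO tumors. The steps between were uneven. In control tumors the sum of Gzmd to Gzmg was 798 CPM in clones of 2 to 4 cells, though 4.76% of their thinned cells had a UMI, then 1032 CPM in clones of 5 to 19 and 312 CPM in clones of 20 to 99. In CD8-IFNγRKO tumors these values were 0, 45.9 and 151 CPM.

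In control tumors 6 of the 8 members with at least 100 UMIs were at least 2-fold higher in clones of 20 or more cells than in clones of 1 cell, where 9.27% of all tested genes were, and 1 was lower, where 3.65% were. In CD8-IFNγRKO tumors 6 of 9 were higher, where 12.7% of genes were, and 1 was lower, where 6.67% were. In control clones of 1 cell Gzmc had 7 UMIs, Gzmd 4, Gzme 2, Gzmf 4 and Gzmg 0. In CD8-IFNγRKO clones of 1 cell Gzmd, Gzmf and Gzmg had 1 UMI each and Gzme 0. These genes passed the 100-UMI limit almost wholly through the large clones, which favours a call of higher. The counts of higher members therefore cannot be weighed against the shares of all genes. The median depth was 4039 UMIs in control clones of 1 cell and 6357 in clones of 20 or more, and 3998 and 10512 in CD8-IFNγRKO. Other genes differed between these cells as well. Tcf7 was at 353 CPM in control and 473 CPM in CD8-IFNγRKO clones of 1 cell, and at 4.19 and 4.09 CPM in clones of 20 or more (log2 ratios -6.09 and -6.54). Prf1 went from 179 to 1205 CPM in control (2.75) and from 65.8 to 1062 CPM in CD8-IFNγRKO (3.99). The part of depth and of these markers in the granzyme differences was not tested. The gene called lower in CD8-IFNγRKO expanded clones was Gzmm, from 25.2 to 1.54 CPM. In control clones Gzmm also went down, from 8.77 CPM (8 UMIs) to 0.640 CPM (18 UMIs). It was under the 100-UMI limit there and was not called.

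The gene called lower in expanded control clones was Gzma. It stood at 419.7 CPM in clones of 1 cell and 30.5 CPM in clones of 20 or more cells (log2 ratio -3.74). In clones of 1 cell it was found in 28 of 183 cells, and 1 cell held 204 of the 383 UMIs. Without that cell the level was 199 CPM and the ratio -2.66. In CD8-IFNγRKO tumors Gzma was at 151 CPM in clones of 1 cell and 157 CPM in clones of 20 or more (0.06). Gzmk went from 183 to 120.3 CPM in control (-0.60) and from 50.4 to 217 CPM in CD8-IFNγRKO tumors (2.08). Without the 3 largest clones the control Gzmk ratio turned to 0.35.

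**Figure D4:**
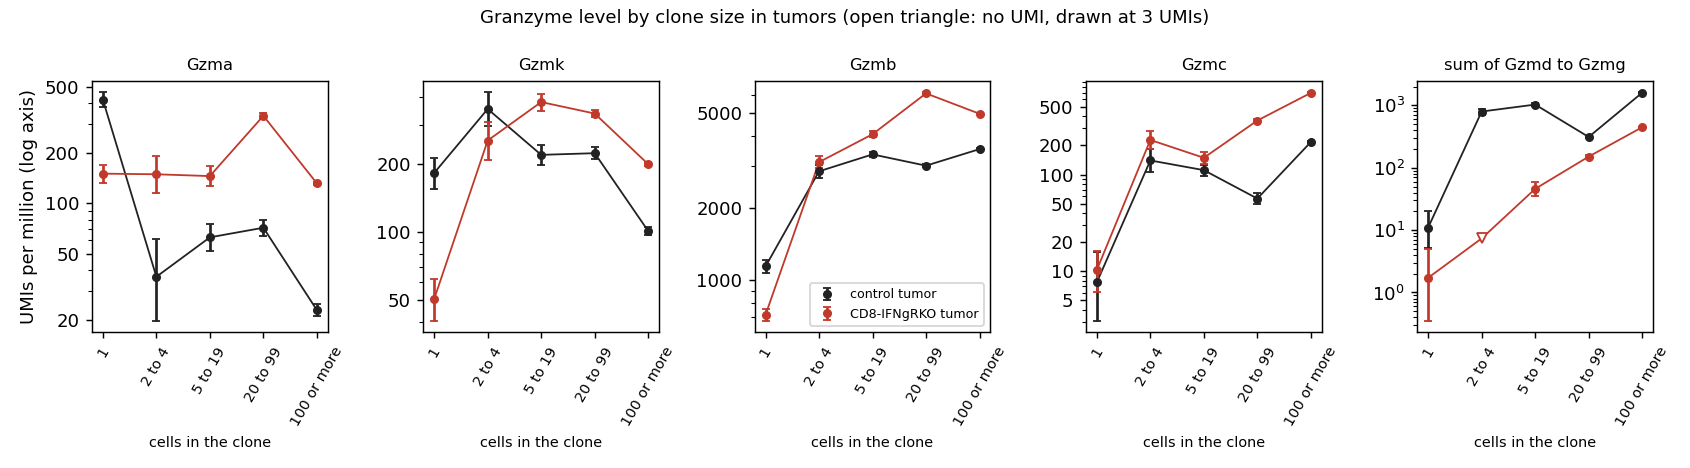
Level of Gzma, Gzmk, Gzmb, Gzmc and the sum of Gzmd to Gzmg in tumor cells by the size of their clone, in CPM on log axes, with 95% Poisson intervals. Control is black and CD8-IFNγRKO red. Gzmc and the sum of Gzmd to Gzmg are lowest in clones of 1 cell, except for the sum in CD8-IFNγRKO clones of 2 to 4 cells, which had no UMI (open triangle, drawn at 3 UMIs). Gzma is highest in control clones of 1 cell (419.7).

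Between genotypes, clones of 20 or more cells gave log2 ratios of 2.33 for Gzma, 0.84 for Gzmk, 0.56 for Gzmb, 1.77 for Gzmc, -2.63 for Gzmd, -2.87 for Gzme, -1.16 for Gzmf and -2.11 for Gzmg. In clones of 1 cell only Gzma, Gzmk and Gzmb had enough UMIs, and all 3 were lower in the CD8-IFNγRKO library, at -1.47, -1.84 and -0.67. Of the 3519 genes tested there, 28 were at least 2-fold lower and 26 higher, with a median of -0.04. Gzmb was found in 31.7% of control and 25.6% of CD8-IFNγRKO thinned cells of clones of 1 cell, with overlapping intervals. Without the cell with most Gzma UMIs in clones of 1 cell of each tumor, the Gzma ratio was -0.59 and no longer past 2-fold. In the same clones of 1 cell Prf1 gave -1.43 and Tcf7 0.42, and their part was not tested. The background barcodes had Gzmk at 145 CPM in control and 0 in CD8-IFNγRKO tumors, and Gzmb at 399 and 6.93 CPM. The part of background in these ratios was not tested. Leaving out the 3 largest clones of each tumor, the whole-tumor ratio of Gzmc was 0.99 and no longer past 2-fold, and that of the sum of Gzmd to Gzmg was -2.26.

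Within each genotype the large clones varied widely. Over the 22 control clones of 20 or more cells, Gzmb ran from 869 to 4589 CPM with a median of 3128, and over the 25 CD8-IFNγRKO clones from 2539.9 to 10848 CPM with a median of 4966. Gzmc ran from 0 to 1064 CPM in control (median 48.9) and from 0 to 1087 CPM in CD8-IFNγRKO clones (median 289). The sum of Gzmd to Gzmg ran from 17.4 to 2999.6 CPM in control (median 346) and from 0 to 829 CPM in CD8-IFNγRKO clones (median 118). Gzma had a median of 19.6 CPM in control (0 to 719.8) and 205 CPM in CD8-IFNγRKO clones (40.1 to 772), and Gzmk 212 CPM (44.3 to 479) and 302 CPM (88.5 to 1105). The ranges overlapped for each of these genes. Clones of 1 mouse share their animal, and the files do not say which clones those are.

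The balance of Gzmc against the sum of Gzmd to Gzmg was then read within each clone. The log2 ratio of Gzmc to that sum, with 1 CPM added to each, had a median of -2.82 over the control clones (-7.28 to 0.30), and 1 of 22 was above 0. Over the CD8-IFNγRKO clones the median was 1.47 (-2.07 to 7.95), and 22 of 25 were above 0 and 2 below. Some of these values rest on few UMIs. The control value of -7.28 had 1 UMI of Gzmc, and the CD8-IFNγRKO value of 7.95 had 0 UMIs of Gzmd to Gzmg. The CD8-IFNγRKO value of -2.07 came from 0 UMIs of Gzmc and 2 of Gzmd to Gzmg. The largest control clone had 189 CPM of Gzmc and 2126 CPM of Gzmd to Gzmg, with 11.1% of its thinned cells showing Gzmc and 39.8% a gene of Gzmd to Gzmg. The largest CD8-IFNγRKO clone had 816 and 655 CPM, with 26.5% and 17.5% of cells. The control clone richest in both, of 124 cells, had 1064 and 2999.6 CPM.

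Some clones were nearly without Gzmd to Gzmg and still had Gzmb. A CD8-IFNγRKO clone of 149 cells had 0 UMIs of Gzmc and 2 of Gzmd to Gzmg, with 4058 CPM of Gzmb and 1105 CPM of Gzmk, the highest Gzmk of the 47 clones. Another, of 133 cells, had 4499.7 CPM of Gzmb, 772 CPM of Gzma, 176 CPM of Gzmc and 4.35 CPM of Gzmd to Gzmg. Gzmb of these 2 clones was at or below the lower quartile of the CD8-IFNγRKO clones (4499.7 CPM, with a median of 4966). The 2 clones were singled out after their values were seen.

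**Figure D5:**
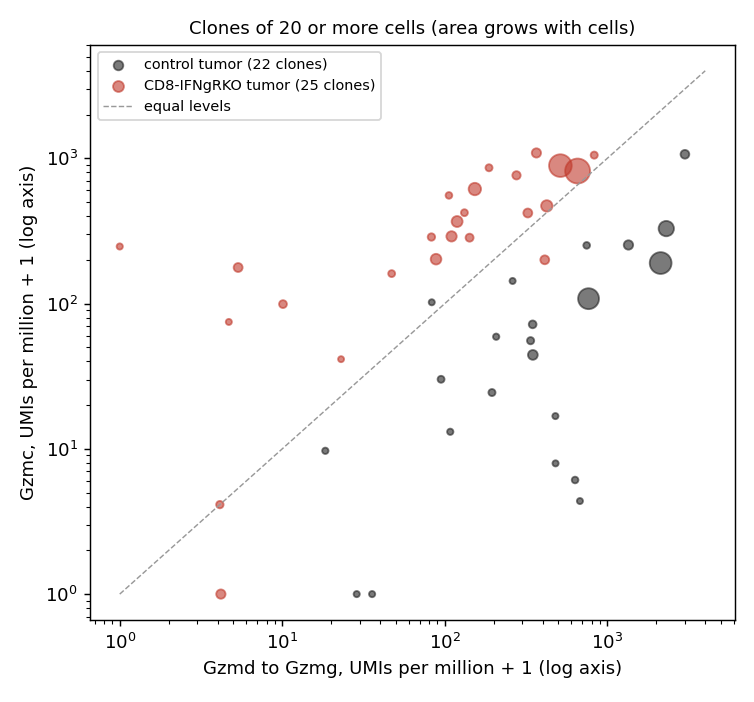
Gzmc against the sum of Gzmd to Gzmg in each tumor clone of 20 or more cells, in CPM plus 1 on log axes, with area growing with the number of cells and a dashed line at equal levels. Of 22 control clones 1 lies above the line, and of 25 CD8-IFNγRKO clones 22 do.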

How the data were processed

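Per the labels, CD8 T cells were profiled by droplet 5′ single-cell RNA-seq (4 libraries) and TCR sequencing (2 libraries). The authors mapped reads with Cell Ranger to mm10 and deposited counts of UMIs per gene and cell, and TCR contig tables. Following the study's methods, barcodes with under 200 or over 6000 genes, over 3% mitochondrial UMIs or over 20% of UMIs in 1 gene were left out, and cells needed UMIs of Cd2, Cd8a and Cd8b1. Cells with 3 or more macrophage markers were removed (11 in all). Doublets were not called; cells with 2 or more TCR β chains (92 control, 176 CD8-IFNγRKO) were kept and left out as an alternative. Totals were 59388096 (control tumor), 93932505 (CD8-IFNγRKO tumor), 29927981 (control LN) and 28841136 (CD8-IFNγRKO LN) UMIs. With 1 library per group no test was run. Log2 ratios used pooled CPM (UMIs scaled to 1000000 per library) plus 1, and genes with under 100 UMIs over both sides were not called. Thinning to 1600 UMIs used random seed 7. The named genes were all 9 members, fixed lists of processing genes and regulators, and the 3 genes most like each member by mean correlation in both tumors. Members and lists were chosen with earlier results of these data known. On Poisson counts simulated for 11322 genes of the tumor comparison, with 200 changed, 96.5% of intervals held the true ratio. The intervals assume such counts, so this does not show how they hold for counts that vary between cells, clones or mice. Alternatives covered scaling, added CPM, filters, thinning, detection limits and clones. Scripts ran under Python 3.11.15 with pandas 2.3.3, numpy 2.4.6, matplotlib 3.10.9 and scipy 1.17.1.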

Additional observations from a re-analysis of the deposited data

Results flagged for a closer look

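Several granzyme ratios pointed in opposite directions in different groups of cells. None of these differences was tested, since each group was 1 library. The log2 ratio of CD8-IFNγRKO over control was 1.94 in tumors and -1.20 in LN for Gzma, where LN held 84 and 19 UMIs, and 0.54 in tumors and -0.86 in LN for Gzmb. In clones of 20 or more tumor cells against clones of 1 cell, the same ratio was 2.33 and -1.47 for Gzma, 0.84 and -1.84 for Gzmk, and 0.56 and -0.67 for Gzmb. Background barcodes of the control tumor had Gzmk at 145 CPM and Gzmb at 399 CPM, against 0 and 6.93 CPM in the CD8-IFNγRKO tumor. Of the control Gzma UMIs in clones of 1 cell, 53.3% came from 1 cell, and without the top cell of each tumor the Gzma ratio there was -0.59. The log2 ratio of clones of 20 or more cells over clones of 1 cell was -0.60 in control and 2.08 in CD8-IFNγRKO tumors for Gzmk, and the control value turned to 0.35, the sign of the CD8-IFNγRKO value, without the 3 largest clones.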

How the results depend on the processing

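Over 183 values and 1139 alternatives, 44 alternatives of 22 values had another sign than the value reported. Of these, 39 were odds ratios of pairs, in 19 values. The other 5 were ratios of clones of 20 or more cells over clones of 1 cell: Gzmk in control (0.35 without the 3 largest clones), Gzma in CD8-IFNγRKO (0.06, 3 alternatives) and Gzmg in CD8-IFNγRKO (-0.30 without the 3 largest clones). Among ratios past 2-fold and odds ratios whose interval left out 0, only Gzmk with Gzmc changed sign, to 0.21 in control and 0.04 in CD8-IFNγRKO tumors without thinning. The tumor log2 ratio of the sum of Gzmd to Gzmg (-1.87) was -1.89 with median-of-ratios scaling, -1.89 as a mean of per-cell CPM, -1.84 with 10 CPM added, -1.84 without cells of 2 or more β chains, -2.03 without the largest clone of each tumor and -2.26 without the 3 largest. Without the 3 largest clones, members at least 2-fold higher went from 2 to 1. With at least 50 CPM required on either side, all genes called went from 118 to 19 higher and from 144 to 29 lower. In CD8-IFNγRKO tumors the ratio of clones of 20 or more cells over clones of 1 cell for the sum of Gzmd to Gzmg went from 7.24 to 5.17 with 10 CPM added. The log2 odds ratio of Gzmc with Gzmd went from 2.92 to 3.72 in control with 2 or more UMIs required, and from 4.02 to 4.58 with thinning to 3000 UMIs and 5.01 with 2 or more UMIs required in CD8-IFNγRKO. The cause was not tested. Over 12 alternatives the tumor ratio ran from 1.53 to 2.12 for Gzma, from 0.99 to 1.66 for Gzmc, from -3.25 to -2.50 for Gzmd, from -3.33 to -2.65 for Gzme, from -1.62 to -1.26 for Gzmf and from -4.65 to -1.66 for Gzmg. Leaving out the 3 largest clones, cells under 2000 UMIs, cells with Ncr1 or Klrb1c or the top cell of clones of 1 cell, and thinning with another seed, were chosen after seeing the data. No paired analysis was possible because each group was 1 library. Depth limits statements on Gzmg, Gzmm and LN granzymes.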
